A study of Mus musculus with 8 samples.

Results

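The genes described here are 46 mouse Wnt pathway genes that act at or outside the cell membrane, among 47729 gene identifiers with counts. They were chosen by symbol: 19 Wnt ligands, 10 Frizzled receptors, 5 co-receptors and kinase-like receptors, 10 secreted antagonists, and the 2 genes Porcn and Wls, whose products make and release active ligand. Their messenger RNA was measured by sequencing in 8 libraries, 2 from each of 4 groups of E14TG2a cells, a mouse embryonic stem (ES) cell line of 129/Ola origin. All groups had been kept for 48 h with 15% serum and LIF, the cytokine that holds mouse ES cells undifferentiated. QT7 cells carry 1 restored copy of TCF7, and QT7L1 cells 1 restored copy of TCF7L1, each in the quadruple knockout background. QKO cells are tagged TCF7(-/-), TCF7L1(-/-), TCF7L2(-/-) and LEF1(-/-), so they lack every full-length member of the TCF/LEF family. WT cells are wild-type E14TG2a. The names QT7 and QT7L1 follow the sample titles and the design text. The genotype tags of these groups name the other factor: TCF7L1(+/-) with TCF7(-/-) in QT7, and TCF7(+/-) with TCF7L1(-/-) in QT7L1, both with TCF7L2(-/-) and LEF1(-/-). The 2 libraries of QT7, QT7L1 and QKO come from clones A and B, while those of WT are called biological replicates with no clone given, so a difference between groups also holds any difference between edited clones and the parent line.

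Wnt proteins are lipid-modified by the acyltransferase Porcn and carried to the surface by Wls. They bind a Frizzled receptor together with Lrp5 or Lrp6, which protects beta-catenin from breakdown, and beta-catenin then acts on genes through the TCF/LEF factors. Other Wnt ligands act through Ror and Ryk receptors, secreted Sfrp and Wif1 proteins bind the ligand, and Dkk1, Dkk2 and Dkk4 bind the Lrp co-receptors. In mouse ES cells Wnt signals favour self-renewal, partly by relieving repression by TCF7L1.

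Depth was 31.57 to 43.36 per library, in 1e+06 counts, and replicates of a group correlated at r = 0.9815 (QT7) to 0.9912 (QT7L1) in log2 CPM (counts per 1e+06 counts). The chi-square per degree of freedom between replicates was 57.6 in QT7, against 18.7 to 22.6 in the other groups, where 1 is counting noise alone. Summed levels of 9 ES cell markers were 5730 to 7200 CPM, and none of the 9 was at 0 in any library. Counts cover whole genes, edited alleles included, so they do not check which factor a line carries: Tcf7 had 16.6 and 20.9 CPM in QT7, 10.1 and 12.7 CPM in QT7L1, 7.97 and 19.7 CPM in QKO and 59.6 and 61.9 CPM in WT, and Tcf7l1 had 27.4 and 22.4 CPM in QT7, 36.9 and 27.5 CPM in QT7L1, 38.3 and 39.1 CPM in QKO and 73.6 and 68.8 CPM in WT. The summed level of 15 fibroblast markers ran from 38.4 CPM (QT7 replicate 1) to 133 CPM (QKO replicate 1), with Lum and Fap at 0 in all libraries.

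The 250 bases before the RefSeq start of 3 members named in the results below are shown (GRCm38.p6, 5′ to 3′ on the gene's strand). Whether these bases bear on the levels measured was not tested. Fzd7, the member with the smallest adjusted p in QKO against WT, holds a TCF/LEF core motif, in capitals, whose first base is 130 bases before the RefSeq start. The Fzd7 window ends at chr1:59482146, upstream of the gene start in GENCODE M21 (chr1:59482424), so the motif lies farther from that start. On chromosome 11, Wnt3a (gene body chr11:59248033-59290752, minus strand) and Wnt9a (chr11:59306928-59333552, plus strand) have start sites 16.2 kb apart and moved in opposite directions in QKO cells, and their windows hold no such motif.
Fzd7, chr1:59481897-59482146, plus strand: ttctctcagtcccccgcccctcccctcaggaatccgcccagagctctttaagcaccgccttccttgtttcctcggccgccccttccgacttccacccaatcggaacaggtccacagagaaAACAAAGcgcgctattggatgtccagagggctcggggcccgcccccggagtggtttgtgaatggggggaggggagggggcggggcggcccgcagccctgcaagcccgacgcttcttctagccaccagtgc
Wnt3a, chr11:59290752-59291001, minus strand: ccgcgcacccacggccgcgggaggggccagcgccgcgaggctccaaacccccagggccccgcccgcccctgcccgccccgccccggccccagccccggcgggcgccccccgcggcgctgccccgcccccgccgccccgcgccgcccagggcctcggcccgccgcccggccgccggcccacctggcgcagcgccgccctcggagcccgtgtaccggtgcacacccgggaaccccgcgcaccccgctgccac
Wnt9a, chr11:59306680-59306929, plus strand: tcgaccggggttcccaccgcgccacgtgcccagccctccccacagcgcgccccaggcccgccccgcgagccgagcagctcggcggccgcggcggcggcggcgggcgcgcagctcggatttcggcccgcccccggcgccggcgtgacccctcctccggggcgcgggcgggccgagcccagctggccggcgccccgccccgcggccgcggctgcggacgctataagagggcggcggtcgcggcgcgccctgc
The motif CTTTGAA was searched on both strands, as were its variants CTTTGAT and also CTTTGTA along with CTTTGTT, which share the core CTTTG. At least 1 of them occurred in 4 of the 34 windows of the 31 members with an entry (11.8%), those of Fzd7, Wnt11, Dkk1 and 1 start of Wnt5b, beside 14.8% of all 32851 windows. For 31 of the 34 windows, bases just after the start lay in a GENCODE M21 transcript of the gene. The Wnt3a and Wnt9a windows are 87.6% and 84.4% G and C, with 41 and 48 CG steps, against 65.2% and 17 in the Fzd7 window.

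Of the 46 genes, 35 passed the filter on low counts, a level of about 0.28 CPM in enough libraries, and 31 of these reached that level in every library. Wnt4, Wnt7a, Wnt8a and Ror1 passed with 5 to 7 libraries at that level. The 11 genes that did not pass were the ligands Wnt1, Wnt2, Wnt2b, Wnt8b, Wnt9b, Wnt10b and Wnt16 and the antagonists Frzb, Dkk2, Dkk4 and Wif1, none of which exceeded 0.59 CPM in any library. The highest count among them was 19, for Dkk2 in QKO replicate 1, the library with the highest fibroblast marker sum. Wnt2 also had its highest count, 10, in that library, while Wnt2b had its highest, 15, in QKO replicate 2 and Wnt16 its highest, 13, in WT replicate 2. The part of fibroblasts in these counts was not tested.

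Scaled to exon length, Frizzled receptors were more abundant than ligands in every library. The 10 Frizzled genes summed to 58.1 and 66.8 CPM per kb in QT7, 66.4 and 73.1 in QT7L1, 71.9 and 63.1 in QKO and 64.8 and 67.3 in WT. The 19 ligands summed to 8.81 and 11.3 CPM per kb in QT7, 7.21 and 8.49 in QT7L1, 10.2 and 10.8 in QKO and 8.70 and 7.69 in WT. The groups overlapped in the Frizzled sum, and no group stood apart in it. Fzd5 had the highest level per kb in every group, with means of 28.9 to 34.3 CPM per kb, followed in WT by Fzd7 (21.1), Sfrp1 (15.9) and Ryk (15.0). Wnt6 was the most abundant ligand, with means of 4.36 CPM per kb in QT7, 3.47 in QT7L1, 4.09 in QKO and 2.15 in WT.

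**Figure D1:**
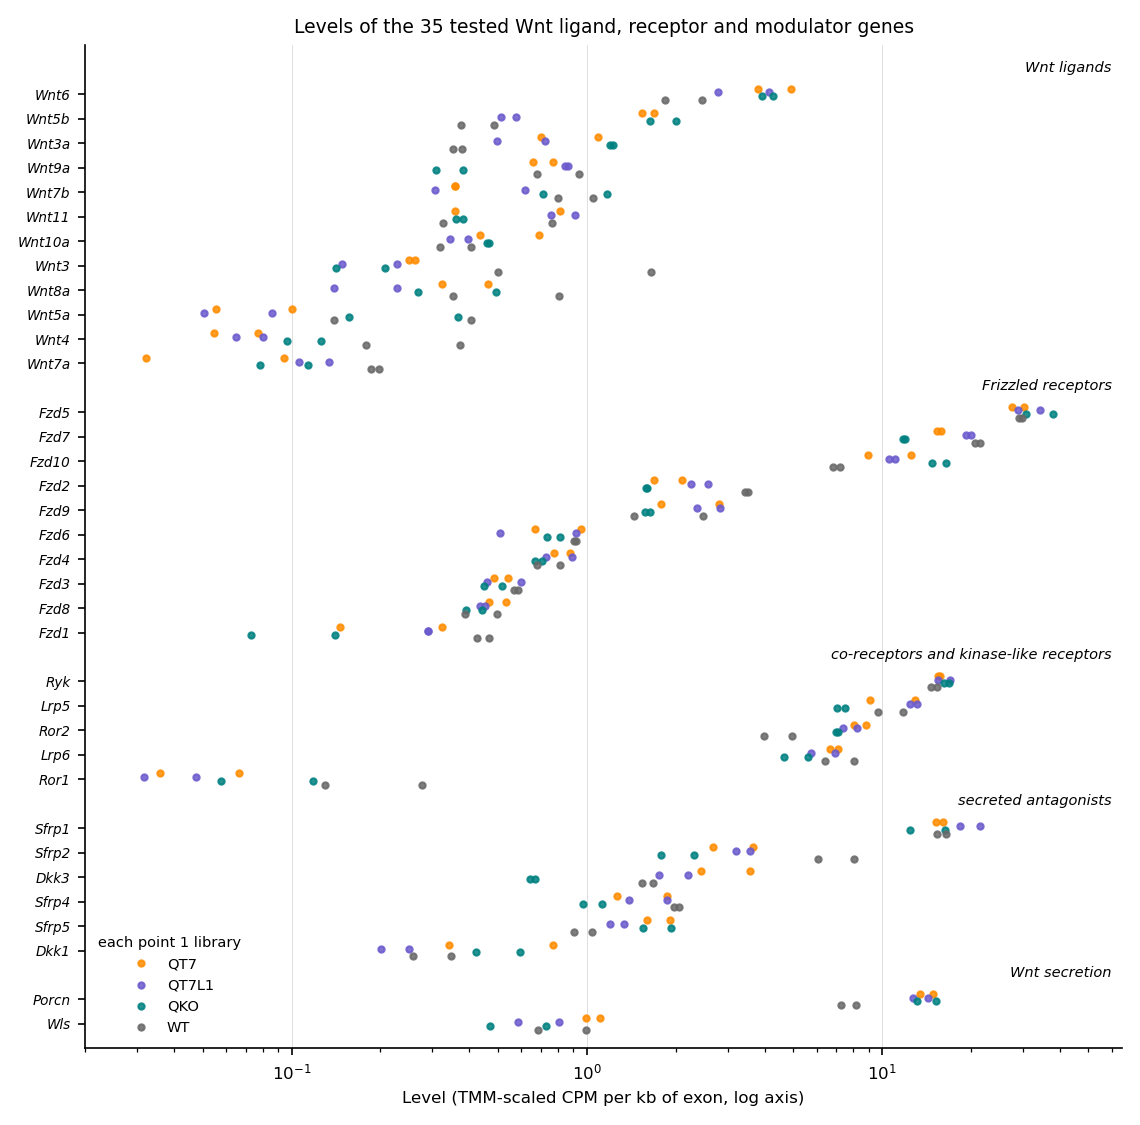
Level of the 35 tested members in each library, in TMM-scaled CPM per kb of exon on a log axis, with 1 point per library coloured by group and the genes ordered by role and level. Fzd5 averages 28.9 in QT7, 31.5 in QT7L1, 34.3 in QKO and 29.4 in WT, while Wnt6, the highest ligand, averages 4.36 in QT7, 3.47 in QT7L1, 4.09 in QKO and 2.15 in WT.

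In QKO against WT cells, 17 of the 35 tested genes were called (48.6%), 7 higher and 10 lower, where 26.4% of all 16515 tested genes were called (11.7% higher and 14.7% lower). Higher were the ligands Wnt3a, Wnt5b and Wnt6, the receptors Fzd10 and Ror2, the antagonist Sfrp5 and the acyltransferase Porcn. Lower were Wnt3, Wnt9a, Fzd1, Fzd2, Fzd7, Lrp5, Lrp6, Sfrp2, Sfrp4 and Dkk3. The median log2 fold change of the 35 was -0.25, beside -0.01 over all tested genes. The member count fell when either library of QKO or of WT was left out, most without replicate 2 of each group. The number of all tested genes called fell in the same fits, also most without replicate 2 of each group. In these bulk samples, fewer cells of a type and less RNA per cell cannot be told apart.

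Against QKO, 6 of the 35 were called in QT7 (17.1%; 4 higher and 2 lower) where 26.9% of all tested genes were called (14.8% higher and 12.1% lower), and 12 in QT7L1 (34.3%; 8 higher and 4 lower) where 29.7% were (15.9% higher and 13.9% lower). The members' share in QT7 was below that of all genes, and the share in QT7L1 was near it. Fzd7, Lrp5, Dkk3 and Wnt9a rose and Fzd10 fell in each of these comparisons, which share the QKO libraries with each other and with QKO against WT. The median log2 fold change of the 35 was 0.12 in QT7 and 0.10 in QT7L1, beside 0.05 and 0.02 over all tested genes. Leaving out either QKO library lowered the member count in both comparisons, and leaving out either QT7L1 library lowered that of QT7L1 against QKO. The number of all tested genes called fell in the same fits.

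Against WT, 8 of the 35 were called in QT7 (22.9%; 4 higher and 4 lower), where 4.62% of all tested genes were called (2.37% higher and 2.25% lower). In QT7L1 against WT 2 were called (5.7%; Ror2 and Porcn, both higher), where 0.745% of all tested genes were called (0.297% higher and 0.448% lower). Each QT7 against WT call was lost without WT replicate 1. In a fit of the 2 groups alone Porcn was the 1 call left (others at adjusted p 0.0505 to 0.125), where 122 of all tested genes were called. The QT7 against WT count also fell without WT replicate 2 or any library of QKO or QT7L1. The QT7L1 against WT count fell without WT replicate 1 or any library of QKO or QT7L1, and rose without either QT7 library. The number of all tested genes called moved the same way in each of these fits.

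**Figure D2:**
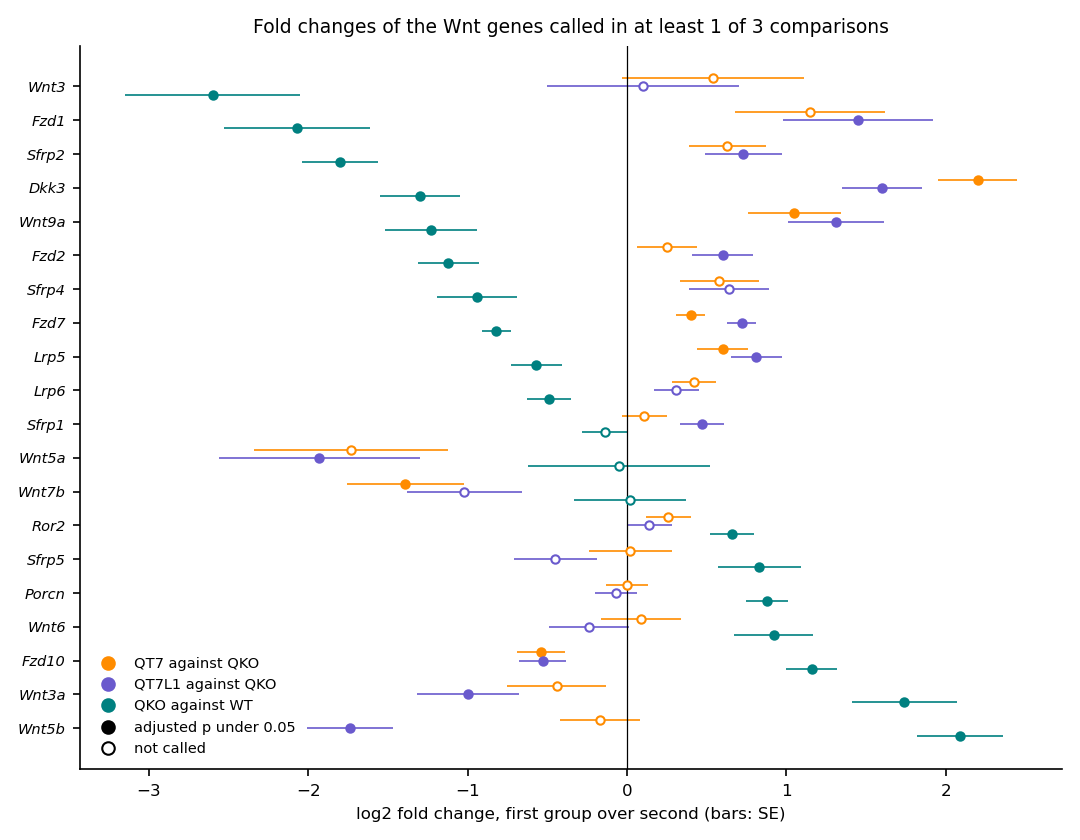
Log2 fold changes (first group over second, bars for 1 SE) of the members called in QT7 against QKO, QT7L1 against QKO or QKO against WT, with filled points for adjusted p under 0.05 and open points for no call. Dkk3 is at 2.20 in QT7 against QKO, 1.60 in QT7L1 against QKO and -1.30 in QKO against WT, and the 3 comparisons share the QKO libraries.

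Among the ligands, Wnt5b and Wnt3a rose in QKO cells and Wnt3 and Wnt9a fell. Wnt5b, a ligand known mainly for signalling that does not pass through beta-catenin (ENSMUSG00000030170, chr6:119432531-119544347, minus strand, gene positions from GENCODE M21 on GRCm38), had 4.49 and 4.09 CPM in QT7, 1.36 and 1.52 CPM in QT7L1, 4.34 and 5.32 CPM in QKO and 1.28 and 0.998 CPM in WT. Its level was high in both libraries of QT7 and QKO and low in both of QT7L1 and WT, with no overlap between these pairs of groups. The log2 fold change was 2.09 ± 0.27 (SE) in QKO against WT (adjusted p = 0.00116), 1.92 ± 0.27 in QT7 against WT (adjusted p = 0.00666) and -1.74 ± 0.27 in QT7L1 against QKO (adjusted p = 0.00184). In QT7 against QKO it was -0.17 ± 0.25 (adjusted p = 0.65), and in QT7L1 against WT 0.35 ± 0.28 (adjusted p = 0.602). The calls in QKO against WT and in QT7L1 against QKO held without each library in turn, and that of QT7 against WT was lost without WT replicate 1 (0.0518).

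Wnt3a, which signals through beta-catenin and sustains ES cell self-renewal when added to cultures, had 1.94 and 3.01 CPM in QT7, 2.00 and 1.37 CPM in QT7L1, 3.32 and 3.41 CPM in QKO and 0.970 and 1.04 CPM in WT. QKO libraries were the highest and WT libraries the lowest, with both restored lines between them. On the log2 scale the fold change was 1.74 ± 0.33 in QKO against WT (adjusted p = 0.00503), and that call held without each library. It was -1.0 ± 0.32 in QT7L1 against QKO (adjusted p = 0.0373), -0.44 ± 0.31 in QT7 against QKO (adjusted p = 0.316) and 1.30 ± 0.33 in QT7 against WT (adjusted p = 0.0508). The QT7L1 against QKO call was lost without any 1 library of WT, QKO or QT7L1 (adjusted p 0.0511 to 0.225).

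Wnt9a, its neighbour on chromosome 11, had 2.19 and 2.55 CPM in QT7, 2.88 and 2.80 CPM in QT7L1, 1.27 and 1.03 CPM in QKO and 2.25 and 3.13 CPM in WT. Both QKO libraries lay below the other 6. Its log2 fold change was -1.23 ± 0.29 in QKO against WT (adjusted p = 0.0134), 1.05 ± 0.29 in QT7 against QKO (adjusted p = 0.0249) and 1.31 ± 0.30 in QT7L1 against QKO (adjusted p = 0.00951). The QKO against WT call was lost without QKO replicate 2 (0.106) or WT replicate 2 (0.119), that of QT7 against QKO without either QKO library (0.0666 and 0.162) or QT7 replicate 2 (0.0674) and in a fit of the 2 groups alone (0.0694), and that of QT7L1 against QKO without QKO replicate 2 (0.0822) or either QT7L1 library (0.0502 and 0.0517).

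Wnt3, a beta-catenin pathway ligand needed for the primitive streak in mouse embryos, had 0.766 and 0.805 CPM in QT7, 0.454 and 0.700 CPM in QT7L1, 0.434 and 0.638 CPM in QKO and 5.07 and 1.54 CPM in WT. The 2 WT libraries were above the other 6 and differed widely from each other. In the same libraries 9 streak and mesoderm markers, none at 0, summed to 14.5 and 13.2 CPM in QT7, 13.8 and 12.8 CPM in QT7L1, 15.9 and 15.7 CPM in QKO and 23.8 and 8.66 CPM in WT, so that WT replicate 1 was the highest library and WT replicate 2 the lowest. Single markers of that list differed: T (Brachyury) had 9.70 CPM in WT replicate 1 and 0.357 to 0.680 CPM in the other libraries, Eomes had 8.04 to 10.4 CPM in the 3 edited groups against 6.35 and 4.65 CPM in WT, and Evx1 was highest in QKO (4.41 and 3.96 CPM, against 0.470 and 0.0907 CPM in WT). The part of such cells in the Wnt3 result was not tested. The log2 fold change of Wnt3 was -2.60 ± 0.55 in QKO against WT (adjusted p = 0.00935), -2.06 ± 0.53 in QT7 against WT (adjusted p = 0.0574) and -2.50 ± 0.55 in QT7L1 against WT (adjusted p = 0.0826). In QKO against WT it was -1.51 without WT replicate 1 (adjusted p = 0.0494), and the call was lost without QKO replicate 1 (0.0661) or QKO replicate 2 (0.0557).

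Wnt6, the most abundant ligand per kb, had 8.32 and 10.8 CPM in QT7, 6.09 and 9.11 CPM in QT7L1, 9.34 and 8.59 CPM in QKO and 4.04 and 5.37 CPM in WT. Every WT library lay below every other library. It rose in QKO against WT (log2 fold change 0.92 ± 0.25, adjusted p = 0.024) and in QT7 against WT (1.02 ± 0.25, adjusted p = 0.0493). The QKO against WT call was lost without any 1 of the 4 libraries compared (adjusted p 0.0606 to 0.125), and the QT7 against WT call without any library but QT7 replicate 1 (0.0612 to 0.307) and with RLE scaling (0.0512). Its neighbour Wnt10a, with a start site 19.6 kb away on the same strand, was not called in any comparison and ranged from 0.783 to 1.70 CPM.

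Wnt7b, a ligand of placental and lung development, had 1.76 and 1.75 CPM in QT7, 3.03 and 1.49 CPM in QT7L1, 3.48 and 5.71 CPM in QKO and 5.16 and 3.92 CPM in WT. Both libraries of QT7 and both of QT7L1 lay below both QKO libraries. QT7L1 against QKO was not called here, and the authors' deposited adjusted p for it was 0.0483. Wnt7b fell in QT7 against QKO (log2 fold change -1.39 ± 0.37, adjusted p = 0.0197). Leaving out QKO replicate 2 (adjusted p = 0.164), QT7 replicate 1 (0.0534) or QT7 replicate 2 (0.053) ended that call.

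Wnt4, a ligand of kidney and female reproductive tract development, had 0.230 and 0.322 CPM in QT7, 0.273 and 0.335 CPM in QT7L1, 0.403 and 0.527 CPM in QKO and 1.57 and 0.748 CPM in WT. Both WT libraries were above the other 6, and WT replicate 1 was above WT replicate 2. Wnt4 fell in QT7 against WT (log2 fold change -2.03 ± 0.48, adjusted p = 0.0433), with values of -1.90 ± 0.49 in QT7L1 against WT (adjusted p = 0.11) and -1.29 ± 0.46 in QKO against WT (adjusted p = 0.0633). The call was lost without WT replicate 1 (-1.42, adjusted p = 0.302), QT7 replicate 1, or any library of QKO or QT7L1 (0.0627 to 0.143), and with DESeq2 (0.0793).

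Wnt5a, the close relative of Wnt5b, had 0.434 and 0.782 CPM in QT7, 0.394 and 0.670 CPM in QT7L1, 2.85 and 1.22 CPM in QKO and 3.16 and 1.09 CPM in WT. The restored lines were below all QKO and WT libraries, and within QKO and within WT replicate 1 was well above replicate 2. Wnt5a fell in QT7L1 against QKO (log2 fold change -1.93 ± 0.63, adjusted p = 0.0464), and was at -1.73 ± 0.61 in QT7 against QKO (adjusted p = 0.063) and -0.05 ± 0.57 in QKO against WT (adjusted p = 0.959). The summed fibroblast markers were 38.4 and 80.3 CPM in QT7, 44.7 and 59.6 CPM in QT7L1, 133 and 46.7 CPM in QKO and 102 and 71.7 CPM in WT. Single markers of that list differed. Col1a2 had 0.102 and 9.8 CPM in QT7 and 0.242 and 5.63 CPM in QT7L1. In QKO Col1a2 had 34.5 and 3.91 CPM, and in WT 25.6 and 11.8 CPM. Pdgfrb had 11.2 and 24.6 CPM in QT7 and 15.2 and 20.2 CPM in QT7L1. In QKO Pdgfrb had 5.93 and 6.82 CPM, and in WT 9.95 and 14.2 CPM. Thy1 was lowest in WT (7.98 and 11.5 CPM). The part of such cells in the Wnt5a result was not tested. The call was lost without QKO replicate 1, which had the highest marker sum (-1.19, adjusted p = 0.262), and without QT7L1 replicate 1 (0.223) or 2 (0.116).

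**Figure D3:**
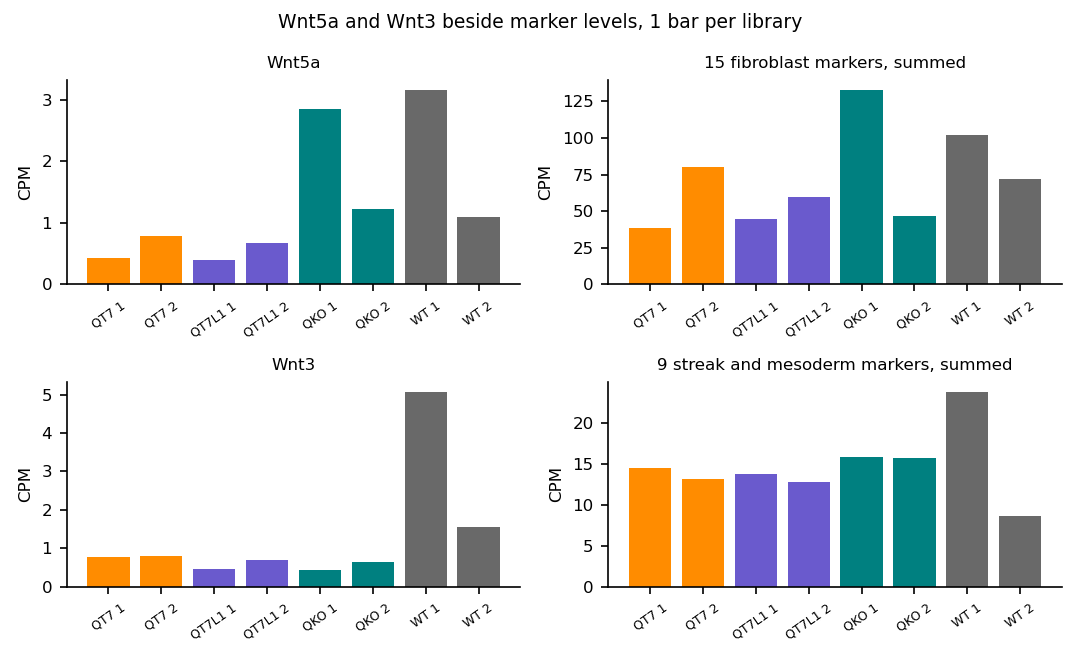
Levels in CPM in each library of Wnt5a beside the summed level of 15 fibroblast markers, and of Wnt3 beside the summed level of 9 streak and mesoderm markers. Wnt5a and the fibroblast markers are both high in QKO replicate 1 (2.85 and 133 CPM) and WT replicate 1 (3.16 and 102 CPM), while Wnt3 is higher in both WT libraries (5.07 and 1.54 CPM) than in the others and the streak marker sum is 23.8 CPM in WT replicate 1 and 8.66 CPM in WT replicate 2.

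The other tested ligands were not called in any comparison. Wnt11, known for directing cell movements, ranged from 1.35 to 3.78 CPM over the 8 libraries, Wnt8a, a streak ligand, from 0.242 to 1.41 CPM, and Wnt7a from 0.102 to 0.626 CPM.

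Of the 10 Frizzled receptors, all tested, Fzd7, Fzd2 and Fzd1 fell in QKO cells and Fzd10 rose. Fzd7, a receptor active in pluripotent cells (ENSMUSG00000041075, chr1:59482424-59486955, plus strand), had 69.9 and 72.2 CPM in QT7, 90.7 and 87.0 CPM in QT7L1, 53.4 and 54.4 CPM in QKO and 93.9 and 97.0 CPM in WT. The 4 groups did not overlap, with QKO lowest, then QT7, then QT7L1, then WT. The fitted log2 fold change was -0.82 ± 0.09 in QKO against WT (adjusted p = 0.000771), 0.40 ± 0.09 in QT7 against QKO (adjusted p = 0.0116), 0.72 ± 0.09 in QT7L1 against QKO (adjusted p = 0.00109) and -0.43 ± 0.09 in QT7 against WT (adjusted p = 0.0328). In QT7L1 against WT it was -0.10 ± 0.09 (adjusted p = 0.639), and QT7L1 and WT are neighbours in this order that were not called different. The QT7 against QKO call was lost without QKO replicate 1 (0.0673) or 2 (0.0703), and the QT7 against WT call without any library but QT7 replicate 2 (0.0516 to 0.159).

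Fzd10 (ENSMUSG00000081683, chr5:128600844-128604093, plus strand) had 29.2 and 40.6 CPM in QT7, 34.3 and 36.1 CPM in QT7L1, 53.7 and 48.1 CPM in QKO and 23.4 and 22.2 CPM in WT. QKO libraries were the highest, WT libraries the lowest, and both restored lines lay between them and overlapped each other. The log2 fold change was 1.16 ± 0.16 in QKO against WT (adjusted p = 0.00131), -0.54 ± 0.15 in QT7 against QKO (adjusted p = 0.0258) and -0.53 ± 0.15 in QT7L1 against QKO (adjusted p = 0.027). Against WT it was 0.61 ± 0.16 in QT7 (adjusted p = 0.0523) and 0.63 ± 0.16 in QT7L1 (adjusted p = 0.104). The QT7 against QKO call was lost when either QKO library (0.141 for replicate 1, 0.073 for replicate 2) or QT7 replicate 1 (-0.32, adjusted p = 0.119) was left out, and in a fit of the 2 groups alone (0.0648), and the QT7L1 against QKO call without any of the 4 libraries compared (0.0738 to 0.146).

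Fzd2, a receptor for Wnt5a among other ligands, had 6.20 and 7.71 CPM in QT7, 8.27 and 9.44 CPM in QT7L1, 5.86 and 5.82 CPM in QKO and 12.6 and 12.9 CPM in WT. The WT libraries were above all others and the QKO libraries below all others. It fell in QKO against WT (log2 fold change -1.12 ± 0.19, adjusted p = 0.00341) and QT7 against WT (-0.87 ± 0.19, adjusted p = 0.0328), and rose in QT7L1 against QKO (0.60 ± 0.19, adjusted p = 0.0383). The first of these calls held without each library. The QT7 against WT call was lost without any library but QT7 replicate 2 (0.0542 to 0.17), and the QT7L1 against QKO call without any library of WT, QKO or QT7L1 (0.0594 to 0.192).

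Fzd1 was scarcer, with 0.612 and 1.36 CPM in QT7, 1.21 and 1.22 CPM in QT7L1, 0.590 and 0.305 CPM in QKO and 1.78 and 1.95 CPM in WT. WT libraries were again the highest and QKO libraries the lowest, and the QT7 libraries lay on both sides of those of QT7L1. It fell in QKO against WT (log2 fold change -2.07 ± 0.46, adjusted p = 0.01) and rose in QT7L1 against QKO (1.45 ± 0.47, adjusted p = 0.0404). In QKO against WT the call was lost without WT replicate 2 (0.0608) or QKO replicate 2 (0.0911). The QT7L1 against QKO call was lost without either WT library (0.0563 and 0.0574), QKO replicate 2 (0.241) or either QT7L1 library (0.124 and 0.134), and with DESeq2 (0.0622).

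The other 6 Frizzled genes were not called in any comparison. Fzd5 ranged from 191 to 261 CPM over the 8 libraries, with 17.8% of its exon bases under an annotated gene on the other strand. Fzd3 ranged from 5.77 to 7.64 CPM, Fzd9 from 3.32 to 6.46, Fzd4 from 4.50 to 5.97, Fzd6 from 2.45 to 4.62 and Fzd8 from 2.32 to 3.19. Of the summed Frizzled level per kb, Fzd7 held 26.5 and 23.9% in QT7, 30.1 and 26.3% in QT7L1, 16.4 and 19.0% in QKO and 32.0 and 31.8% in WT. Fzd10 held 15.5 and 18.7% in QT7, 15.9 and 15.2% in QT7L1, 23.0 and 23.4% in QKO and 11.1 and 10.1% in WT. Fzd10 thus stood above Fzd7 per kb in both QKO libraries and below it in the other 6.

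**Figure D4:**
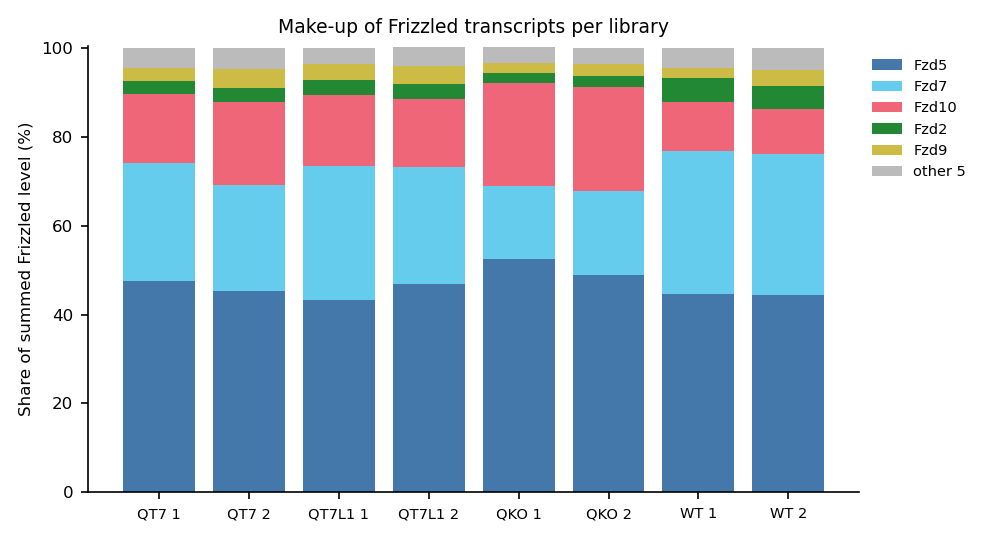
Share of each Frizzled gene in the summed Frizzled level (CPM per kb of exon) in each library, in percent. Fzd5 takes 43.3 to 52.6% throughout, while the Fzd10 share is 23.0 and 23.4% in QKO against 11.1 and 10.1% in WT.

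Both Lrp co-receptors fell in QKO cells and Ror2 rose. Lrp5 had 88.8 and 126 CPM in QT7, 127 and 121 CPM in QT7L1, 72.7 and 68.6 CPM in QKO and 94.6 and 115 CPM in WT. Both QKO libraries lay below the other 6, and the QT7 libraries spanned those of WT. On the log2 scale the fold change was -0.57 ± 0.16 in QKO against WT (adjusted p = 0.0272), 0.60 ± 0.16 in QT7 against QKO (adjusted p = 0.0202) and 0.81 ± 0.16 in QT7L1 against QKO (adjusted p = 0.00558). In QKO against WT the call was lost without either QKO library (0.083 and 0.141) or WT replicate 2 (0.192), that of QT7 against QKO without either QKO library (0.0707 and 0.123) or QT7 replicate 2 (0.33, adjusted p = 0.0863) and in a fit of the 2 groups alone (0.0515), and that of QT7L1 against QKO without QKO replicate 2 (0.051).

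Lrp6, the other co-receptor, had 96.7 and 91.1 CPM in QT7, 78.7 and 95.0 CPM in QT7L1, 76.8 and 63.7 CPM in QKO and 87.4 and 110 CPM in WT. QKO libraries were again the lowest. It fell in QKO against WT (log2 fold change -0.49 ± 0.14, adjusted p = 0.0309), a call lost without WT replicate 2 (-0.31, adjusted p = 0.246) or QKO replicate 2 (0.202), and was at 0.42 ± 0.14 in QT7 against QKO (adjusted p = 0.0537) and 0.31 ± 0.14 in QT7L1 against QKO (adjusted p = 0.133).

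Ror2, a receptor tyrosine kinase that binds Wnt5a, had 34.1 and 37.4 CPM in QT7, 34.8 and 31.3 CPM in QT7L1, 29.8 and 30.2 CPM in QKO and 16.9 and 21.1 CPM in WT. WT libraries were the lowest, and the 3 edited groups lay close together above them. Its log2 fold change was 0.91 ± 0.14 in QT7 against WT (adjusted p = 0.00969), 0.80 ± 0.14 in QT7L1 against WT (adjusted p = 0.0348) and 0.66 ± 0.14 in QKO against WT (adjusted p = 0.00866). Against QKO it was 0.26 ± 0.14 in QT7 (adjusted p = 0.196) and 0.14 ± 0.14 in QT7L1 (adjusted p = 0.471). The QKO against WT call was lost without WT replicate 1 (0.0545) or QKO replicate 2 (0.0588), the QT7L1 against WT call without WT replicate 1 (0.261) or any library of QKO or QT7L1 (0.0611 to 0.275), and the QT7 against WT call without WT replicate 1 (0.0927). Ryk, a receptor with an inactive kinase domain, ranged from 66.6 to 77.3 CPM and Ror1 from 0.183 to 1.60 CPM, with no call.

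**Figure D5:**
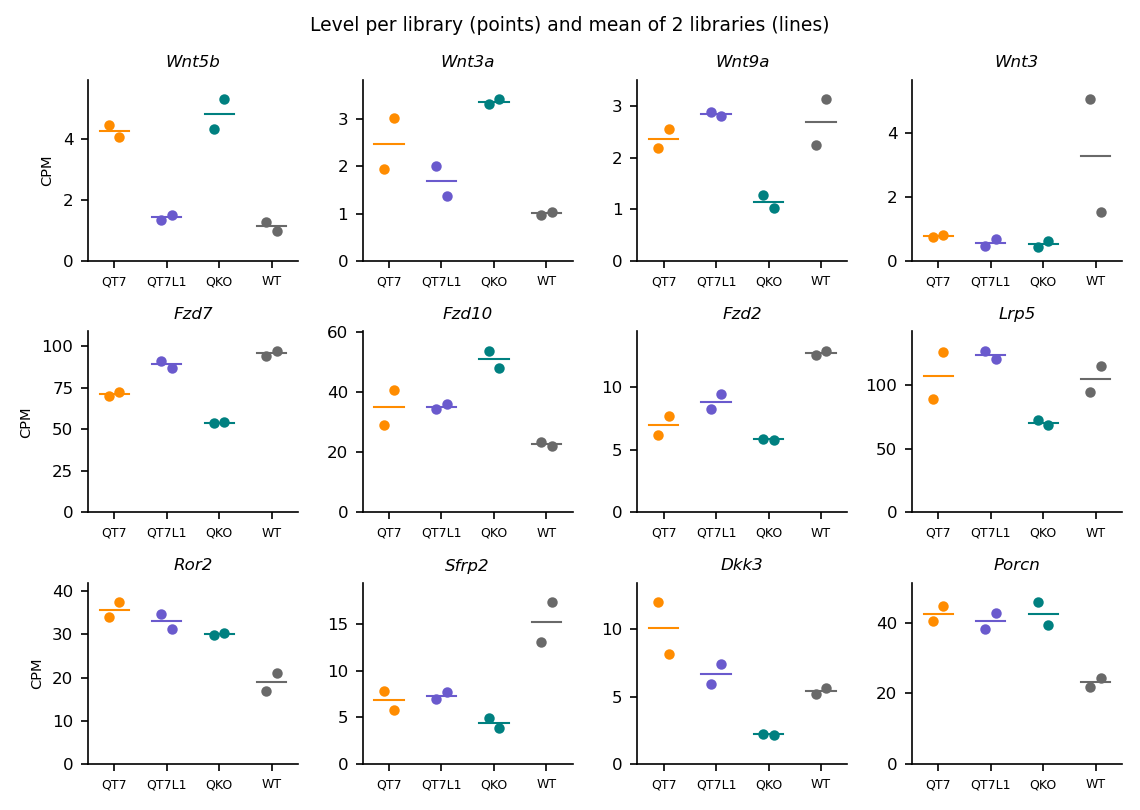
Level in CPM of 12 called members in each library (points) with the mean of the 2 libraries of a group (lines), groups in the order QT7, QT7L1, QKO and WT. Dkk3 is lowest in QKO (2.23 and 2.16 CPM), while Ror2 and Porcn are lowest in WT (16.9 and 21.1, and 21.7 and 24.4 CPM) and Wnt5b is high in QT7 and QKO alone.

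Of the antagonists, Sfrp2, Sfrp4 and Dkk3 fell in QKO cells and Sfrp5 rose. Dkk3, a Dickkopf relative that does not act as a classical Lrp antagonist (ENSMUSG00000030772, chr7:112116017-112159057, minus strand), had 12.0 and 8.19 CPM in QT7, 5.91 and 7.40 CPM in QT7L1, 2.23 and 2.16 CPM in QKO and 5.16 and 5.65 CPM in WT. QKO libraries were the lowest, and both restored lines lay above WT in every library. The fitted log2 fold change was 2.20 ± 0.25 in QT7 against QKO (adjusted p = 0.000929), 1.60 ± 0.25 in QT7L1 against QKO (adjusted p = 0.00206) and -1.30 ± 0.25 in QKO against WT (adjusted p = 0.00572). It was 0.90 ± 0.24 in QT7 against WT (adjusted p = 0.0605). The calls against QKO held without each library, and that of QKO against WT was lost without QKO replicate 2 (0.0514).

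Sfrp2, a soluble Frizzled-like binder of Wnt, had 7.86 and 5.75 CPM in QT7, 6.90 and 7.67 CPM in QT7L1, 4.96 and 3.83 CPM in QKO and 13.1 and 17.3 CPM in WT. WT libraries were the highest and QKO libraries the lowest, and QT7 and QT7L1 overlapped between them. The log2 fold change was -1.80 ± 0.24 in QKO against WT (adjusted p = 0.0013), -1.16 ± 0.23 in QT7 against WT (adjusted p = 0.0258) and 0.73 ± 0.24 in QT7L1 against QKO (adjusted p = 0.0429), with -1.06 ± 0.23 in QT7L1 against WT (adjusted p = 0.0749) and 0.63 ± 0.24 in QT7 against QKO (adjusted p = 0.0742). The QKO against WT call held without each library. The QT7 against WT call was lost without either WT or either QT7L1 library (0.0527 to 0.126) and the QT7L1 against QKO call without WT replicate 2 or any of the 4 libraries compared (0.0511 to 0.25). An annotated gene on the other strand covers 16.1% of the exon bases of Sfrp2, and the strand setting of the counting is not given in the sources used here. Such genes also cover smaller shares of Wnt11 (8.8%), Wnt7b (6.6%), Wnt5a (4.6%) and Fzd6 (3.2%).

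Sfrp4 had 7.83 and 5.29 CPM in QT7, 7.81 and 5.82 CPM in QT7L1, 4.72 and 4.05 CPM in QKO and 8.61 and 8.25 CPM in WT. It fell in QKO against WT (log2 fold change -0.94 ± 0.25, adjusted p = 0.021), with the QKO libraries below the other 6. Sfrp5 had 3.65 and 3.04 CPM in QT7, 2.54 and 2.28 CPM in QT7L1, 3.66 and 2.94 CPM in QKO and 1.72 and 1.97 CPM in WT. It rose in QKO against WT (0.83 ± 0.26, adjusted p = 0.0418), and WT libraries were below all others. Both calls were lost without any of the 4 libraries compared (0.0651 to 0.137 for Sfrp4 and 0.0918 to 0.209 for Sfrp5), and that of Sfrp5 also without either QT7L1 library (0.0647 and 0.0638) and with DESeq2 (0.0601).

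Sfrp1, the most abundant antagonist per kb, had 66.4 and 70.2 CPM in QT7, 93.9 and 80.5 CPM in QT7L1, 71.8 and 54.4 CPM in QKO and 67.4 and 72.0 CPM in WT. The QT7L1 libraries were the highest and the other 3 groups overlapped. It rose in QT7L1 against QKO (log2 fold change 0.47 ± 0.14, adjusted p = 0.0286), a call lost without QKO replicate 2 (0.28, adjusted p = 0.22) or either QT7L1 library (0.175 and 0.0555). Dkk1, a classical Lrp antagonist and beta-catenin target, was not called in any comparison and had 1.86 and 0.828 CPM in QT7, 0.606 and 0.487 CPM in QT7L1, 1.02 and 1.44 CPM in QKO and 0.626 and 0.839 CPM in WT.

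Porcn, which attaches the lipid that Wnt ligands need for secretion (ENSMUSG00000031169, chrX:8193848-8206525, minus strand), had 40.4 and 44.6 CPM in QT7, 38.2 and 42.8 CPM in QT7L1, 45.7 and 39.3 CPM in QKO and 21.7 and 24.4 CPM in WT. The 3 edited groups overlapped and all lay above WT. It rose against WT in QT7 (log2 fold change 0.88 ± 0.13, adjusted p = 0.00866), in QT7L1 (0.81 ± 0.13, adjusted p = 0.0282) and in QKO (0.88 ± 0.13, adjusted p = 0.00199), 3 comparisons that share the WT libraries. Against QKO it was at 0.00 ± 0.13 in QT7 (adjusted p = 0.996) and -0.07 ± 0.13 in QT7L1 (adjusted p = 0.722). The QKO against WT call held without each library, the QT7 against WT call was lost without WT replicate 1 (0.0927), and the QT7L1 against WT call without any of the 4 libraries compared (0.058 to 0.226). Wls, the ligand carrier, had 9.72 and 8.76 CPM in QT7, 5.15 and 7.07 CPM in QT7L1, 6.39 and 4.13 CPM in QKO and 8.73 and 6.03 CPM in WT, and was not called (0.81 ± 0.28 in QT7 against QKO, adjusted p = 0.0516).

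Between the restored lines, QT7 against QT7L1, edgeR's quasi-likelihood test called none of the 35 members, where it called 1 gene of all those tested (0.00606%). At an unadjusted p under 0.05 there were 5 members: Wnt5b, Fzd7, Dkk1, Sfrp1 and Dkk3. DESeq2 called 1, Wnt5b, where it called 235 of all 16515 tested genes. The Wnt5b levels of 4.49 and 4.09 CPM in QT7 lay above those of 1.36 and 1.52 CPM in QT7L1 in both libraries, a log2 fold change of 1.57 ± 0.27 (adjusted p = 0.111 with edgeR and 0.00244 with DESeq2). In the authors' deposited table of this comparison the adjusted p of Wnt5b was 0.00257, with a log2 fold change of 1.20. The authors' fold changes come from another fit and are not directly comparable in size. For Wnt3 theirs was 1.43 as WT over QKO, where the fit here gave -2.60 as QKO over WT. Without QT7 replicate 2 the log2 fold change was 1.64 for Wnt5b, 1.76 for Dkk1, 0.85 for Dkk3 and -0.48 for Lrp5. In that fit many more of all tested genes were called than in the fit reported. Wnt5b was not called when any other library was left out. For the other members with an unadjusted p under 0.05, the log2 fold change was -0.32 ± 0.09 for Fzd7 (adjusted p = 0.261), 1.29 ± 0.46 for Dkk1 (0.351), -0.35 ± 0.14 for Sfrp1 (0.396) and 0.60 ± 0.24 for Dkk3 (0.399).

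The authors' deposited tables can be set beside these calls. Of the 17 members called in QKO against WT, 16 had an adjusted p under 0.05 in the authors' deposited table, as did 5 of 6 in QT7 against QKO, 9 of 12 in QT7L1 against QKO, 7 of 8 in QT7 against WT and 2 of 2 in QT7L1 against WT, each in the same direction. In all, the authors' tables had 16 members under 0.05 in QKO against WT, 7 in QT7 against QKO and 10 in QT7L1 against QKO. For QT7 against WT they had 11, with Wnt3, Wnt7b, Fzd10 and Dkk3 not called here. For QT7L1 against WT they had 5, with Wnt3, Fzd10 and Sfrp2 not called here. For QT7 against QT7L1 they had 1, Wnt5b. These are 2 treatments of the same libraries.

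Of 54 other pathway genes on 5 lists, 49 were tested. In QT7 against QKO 10 were higher and 1 lower (22.4% called, beside 26.9% of all tested genes), in QT7L1 against QKO 12 higher and 5 lower (34.7%, beside 29.7%) and in QKO against WT 2 higher and 16 lower (36.7%, beside 26.4%). In QT7 against WT and in QT7L1 against WT 0 were higher and 4 lower (8.16% in each, beside 4.62% and 0.745%). These counts include Tcf7 and Lef1, which were themselves edited, so the shares against WT partly reflect the edited genes. The feedback list that holds both gave 2 of the 4 lower calls in QT7 against WT. It gave 3 of the 4 in QT7L1 against WT and 4 of the 16 in QKO against WT. In QT7 against QT7L1 edgeR called none (7 at an unadjusted p under 0.05), and DESeq2 called 2, Lef1 and Gpc4, of the 235 genes it called in all. Among 9 tested R-spondins and genes of receptor turnover, 4 fell in QKO against WT: Kremen1, a Dkk co-receptor (log2 fold change -0.77 ± 0.13, adjusted p = 0.00383; the same pair is given for the genes that follow), Rspo1, an R-spondin (-1.29 ± 0.30, 0.0126), Rnf43, a ligase that removes Frizzled from the surface (-1.78 ± 0.42, 0.0133), and Lgr4, an R-spondin receptor (-0.31 ± 0.10, 0.0425). Kremen1 rose in QT7 against QKO (0.74 ± 0.13, 0.00414), and Kremen1 (0.67 ± 0.13, 0.00594), Rspo1 (0.94 ± 0.31, 0.0417) and Rnf43 (1.55 ± 0.43, 0.0224) rose in QT7L1 against QKO. Among 10 tested extracellular and membrane regulators, the glypican Gpc4 rose in QKO against WT (0.93 ± 0.14, 0.00202) and fell in QT7L1 against QKO (-1.03 ± 0.14, 0.00125). The related Gpc3 fell in QKO against WT (-1.70 ± 0.27, 0.00331) and rose in QT7 (1.96 ± 0.27, 0.00185) and QT7L1 (1.48 ± 0.27, 0.00452) against QKO. Reck, a membrane protein of Wnt7 signalling, fell in QKO against WT (-1.09 ± 0.22, 0.00737) and rose in QT7 (1.14 ± 0.22, 0.00591) and QT7L1 (0.85 ± 0.23, 0.0188) against QKO. Notum, which strips the lipid from Wnt, fell in QT7L1 against QKO (-0.79 ± 0.18, 0.0098).

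Within the cell, 2 of 13 tested transducers were called, the kinase gene Csnk1e, lower in QKO against WT (-0.53 ± 0.17, adjusted p = 0.0498) and higher in QT7L1 against QKO (0.84 ± 0.17, 0.00775), and Btrc, part of the ligase that marks beta-catenin, higher in QT7 against QKO (0.35 ± 0.11, 0.0437). Of 8 feedback targets, the Dishevelled-binding genes Nkd2 and Nkd1 fell in QKO against WT (-2.19 ± 0.31, 0.00154, and -1.67 ± 0.39, 0.013) and rose in QT7 (1.31 ± 0.31, 0.0118, and 1.68 ± 0.39, 0.0121) and QT7L1 (1.85 ± 0.31, 0.0025, and 1.98 ± 0.39, 0.00577) against QKO. Sp5 fell in QT7L1 against QKO (-2.11 ± 0.41, 0.00509) and WT (-2.41 ± 0.41, 0.0323), and Lef1, itself an edited gene, fell against WT in QT7 (-1.99 ± 0.45, 0.038), QT7L1 (-4.37 ± 0.55, 0.0149) and QKO (-2.39 ± 0.46, 0.00596) and in QT7L1 against QKO (-1.98 ± 0.58, 0.0286). The 1 target higher in QKO against WT was Axin2, the scaffold that limits beta-catenin (1.31 ± 0.24, 0.00617), named after its values were seen. Axin2 fell in QT7 (-1.0 ± 0.24, 0.0166) and QT7L1 (-0.73 ± 0.24, 0.0482) against QKO. Of 9 planar polarity genes, the cadherin Celsr3 fell in QKO against WT (-0.88 ± 0.15, 0.00381) and rose in QT7L1 against QKO (0.60 ± 0.15, 0.0164). Vangl2 fell in QKO against WT (-0.43 ± 0.13, 0.0332) and rose in QT7 (0.54 ± 0.13, 0.0131) and QT7L1 (0.64 ± 0.13, 0.00558) against QKO. Prickle2 rose in QT7 against QKO (1.60 ± 0.32, 0.00589), and Prickle1 fell against WT in QT7 (-2.07 ± 0.37, 0.0172), QT7L1 (-2.45 ± 0.39, 0.0266) and QKO (-1.49 ± 0.37, 0.0154). Of the 44 calls of the pathway genes named by rule and Axin2, 11 held without each library: those of Gpc3 and Gpc4, those of Nkd2 in QKO against WT and QT7L1 against QKO, those of Kremen1 in QKO against WT and QT7 against QKO, that of Celsr3 in QKO against WT, and that of Sp5 in QT7L1 against QKO. Of the 44, 26 were lost without QKO replicate 2, 16 without QKO replicate 1, 13 and 16 without QT7L1 replicates 1 and 2, 10 and 11 without WT replicates 1 and 2, and 2 and 3 without QT7 replicates 1 and 2, with adjusted p up to 0.349. Leaving out 1 library moved the log2 fold change by over 1.5 times for Csnk1e in QKO against WT (-0.26 without WT replicate 2), Lef1 in QT7 and in QKO against WT (-1.10 and -1.49 without WT replicate 1), Axin2 in QT7 against QKO (-0.63 without QT7 replicate 1) and Rspo1 in QT7L1 against QKO (0.59 and 1.42 without QKO replicates 1 and 2). Other settings ended the calls of Btrc (0.0544 with RLE scaling, 0.0549 with DESeq2, 0.0646 with no filter and 0.108 in a fit of the 2 groups alone), of Csnk1e in QKO against WT (0.0544 with RLE scaling), of Lgr4 (0.0564 with no filter), of Rnf43 in QT7L1 against QKO (0.0694 with DESeq2) and, in fits of the 2 groups alone, of Axin2 in QT7 against QKO (0.068) and of Lef1 (0.133) and Prickle1 (0.0677) in QT7 against WT.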

How the data were processed

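RNA was sequenced from 8 libraries, 2 in each of 4 groups taken from the sample titles. The submitters' processing notes name bcl2fastq 1.8.4, the aligner STAR 2.4.0f1, the build mm10 (GRCm38), the counter HTSeq and DESeq2 (as version 2.1.8.3). The sources used here do not give the HTSeq version, strand setting or annotation. Per the labels' protocols, libraries were made from 250 ng of RNA with a stranded TruSeq mRNA kit. The deposited library files hold raw counts per Ensembl gene. The authors' deposited comparison tables hold a mean normalised signal, a test score, p-values and a log2 fold change with its SE. They were used for gene symbols and set beside the calls made here. No value column of other samples was found (0 columns).

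Members were matched through the symbols in the deposited tables. Counts were fitted in R 4.3.3 with edgeR 4.0.16 (limma 3.58.1): filterByExpr (16515 genes kept), TMM factors (0.955 to 1.028), robust quasi-likelihood F tests, 2-sided, on all 8 libraries with 4 residual degrees of freedom, and Benjamini-Hochberg adjustment over all genes of a comparison, called under 0.05. Fold changes are the first-named group over the second, with SE the absolute log2 fold change over the square root of F. Levels are TMM-scaled CPM, per kb over the exon union of GENCODE M21. Replicates of the edited groups are clones, and the labels do not say how the WT replicates were separated, so p-values measure the spread between these libraries. The fit was tested on simulated data in which all groups had the same spread. That test does not cover the wider spread seen between the QT7 libraries.

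Alternatives were RLE scaling, DESeq2 1.42.0, no filter, the 2 groups alone, a replicate block and leaving out each library. Members called in at least 1 comparison are given in every library, others by ranges, and of each other pathway list up to 4 genes with the smallest adjusted p. The members and lists were chosen with earlier results of these data known.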

Additional observations from a re-analysis of the deposited data

How the results depend on the processing

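No call reversed under any alternative run. Of the 45 calls of members, 44 were kept with RLE scaling, 42 with DESeq2, 45 with no filter on low counts and 35 in fits of the 2 groups alone. Most of the 45 were lost without at least 1 library. No call in QT7 against WT or in QT7L1 against WT held without each library in turn. Replicate numbers do not mark a shared origin, and same-numbered libraries deviated from their group means with correlations of -0.21 (QT7 and QKO) to 0.16. With the replicate number as a block the members called were 17 in QKO against WT, 7 in QT7 against QKO, 12 in QT7L1 against QKO, 9 in QT7 against WT, 3 in QT7L1 against WT and 0 in QT7 against QT7L1, and the Wnt5a call in QT7L1 against QKO was lost (adjusted p = 0.0545). In the same order the block fits called 4303, 4390, 4853, 801, 169 and 2 of all 16515 tested genes. A pairing of replicate 1 with replicate 2 across groups, chosen after seeing the data, called 9 members in QT7 against QKO and 18 in QT7L1 against QKO. It called 4938 and 7395 of all tested genes in these comparisons. With no filter, 12 members were called in QT7 against QKO (6 in the fit reported), 15 in QT7 against WT (8), 10 in QT7L1 against WT (2) and 1 in QT7 against QT7L1 (0). In fits of the 2 groups alone, 3 were called in QT7 against QKO, 1 in QT7 against WT and 6 in QT7L1 against WT. DESeq2 called 5 in QT7L1 against WT and 1 in QT7 against QT7L1. Leaving out each library gave 7 to 18 members called in QKO against WT, 1 to 8 in QT7 against QKO, 4 to 16 in QT7L1 against QKO, 0 to 10 in QT7 against WT, 0 to 5 in QT7L1 against WT and 0 to 4 in QT7 against QT7L1, where a group left with 1 library is assumed to vary like the others. Over all genes, QT7 against WT gave 763 calls, 2203 with no filter, 1300 with DESeq2 and 122 from the 2 groups alone, QT7L1 against WT 123, 1248, 568 and 655, and QT7 against QT7L1 1, 1030, 235 and 19. QT7 against QKO gave 4449 calls over all genes, 5373 with no filter and 3110 from the 2 groups alone. Leaving out each library also changed the number of all tested genes called. The cause of these differences was not tested. With 2 libraries in a group, a member near the threshold can be called or not by 1 library. The 11 members under the filter, at most 19 counts in any library, were tested only in the fit with no filter.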
